A study of Mus musculus with 22 samples.

Results

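Solute carriers are membrane proteins that move amino acids, transmitters, sugars, vitamins, ions, metals, nucleotide sugars and other small molecules across the plasma membrane and the membranes of organelles. The genes followed here were the 32 loci, of 66494 in the data, that the study's published gene tables pair with a symbol beginning with Slc. One further such locus was not analysed here. The tables served only to attach names to loci. They are, however, lists of genes that the study selected on these same sorted and TRAP libraries. How many members passed a threshold in those comparisons is therefore not independent evidence, whereas no list was drawn from the libraries with rapamycin. The comparisons of rapamycin with no treatment, however, share the TRAP libraries without rapamycin on which lists were drawn. Of the 32, 9 came from the list on sorted cells, 3 from the list on TRAP and 24 from the list on translational efficiency, some of them from more than one. For 21 loci the assembled transcript matched a reference transcript and for 8 it shared a splice junction with one. Slc7a15 and Slc9a3 are less certain, because they only overlapped their reference transcript.

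The study asked how loss of Tsc1, a negative regulator of the growth kinase complex mTORC1, changes transcript abundance and ribosome binding in mouse cerebellar Purkinje cells (PCs). Total RNA was sequenced from GFP-positive PCs sorted from dissociated cerebellum, and ribosome-bound RNA was collected from whole cerebellum by translating ribosome affinity purification (TRAP), in which an EGFP-tagged ribosomal protein is expressed only where Cre is active. Both genotypes were C57BL/6, the mutants (CC) carrying 2 floxed Tsc1 alleles and the controls (WW) wild-type alleles. Cre is driven by the L7 (Pcp2) promoter, which is active in PCs, so that other cerebellar cells keep Tsc1. The methods place L7Cre and L7GFP in both sorted genotypes, although the description of the gating names the controls without Cre, and they place L7Cre and the Rosa26fsTRAP allele in both TRAP genotypes. The sorted set held 5 libraries per genotype. The TRAP set held 3 libraries for each combination of genotype and treatment, either none or rapamycin, an inhibitor of mTORC1. Ages are not in the labels, nor are the dose and timing of rapamycin, and the methods name P21 and P42 for the sorted animals. Tsc1 itself was not paired with a locus, which left no check of the genotype by the deleted gene.

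PCs are inhibitory neurons whose only output is the transmitter GABA. The vesicular transporter Slc32a1 (VGAT) fills synaptic vesicles with GABA, and plasma membrane carriers of the Slc6 family, among them Slc6a13, remove it from the extracellular space. Neurons and glia also depend on carriers for cystine, creatine, glucose, bicarbonate, zinc and copper, and mitochondria on the Slc25 family, which exchanges nucleotides, cofactors and amino acids with the cytosol.

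Depth differed widely between the assays, at 43.3 to 86.3 M estimated fragments per sorted library and 2.47 to 6.38 M per TRAP library. In the sorted libraries genotype and submission number were partly confounded. Mutants 61, 74 and 103 belonged to submission MS2723 and controls 45, 48 and 144b to submission MS2872, and only MS3005 held both genotypes, with mutants 167 and 191 and controls 144a and 176. Controls 144a and 144b have 1 animal number in common and may come from 1 animal. Averaged as 1 control, they left 8 of the 9 members named below past the threshold, without Slc5a1, and 168 of all loci in place of 242. The summed level of 10 PC markers was 54940 to 133500 in the 3 mutants of MS2723, 380000 and 409300 in the other mutants and 378800 to 696000 in the controls. All 10 markers passed the filter on low values in both assays. The markers of PCs, of glia and of GABA synthesis used here were all taken from the study's tables of selected genes. Itpr1 and Homer3 are on its list for sorted cells. Genotype differences of these markers are therefore not independent evidence. The sorted sum of 3 astroglial markers (Gfap, Apoe and Tnc) was 268400 to 342700 in the mutants of MS2723, 216500 and 222600 in the other mutants and 116400 to 286300 in controls. In TRAP without rapamycin the PC marker sum was 10200 to 11420 in mutants and 11850 to 13970 in controls. With rapamycin it was 10650 to 11720 in mutants and 9594 to 10490 in controls. The astroglial sum in TRAP was 358.4 to 488.5 in mutants without rapamycin and 49.5 to 161.7 in the other 9 libraries. TRAP mutant 3 stood apart, with 40.5% of its signal in its 10 highest loci against 58.3% to 72.6% in the others.

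Levels are given as the deposited normalized values, which are estimated fragments divided by a library factor and not by gene length, so that they compare libraries within 1 assay and not genes with each other. Differences are on the log2(value + 1) scale, mutant minus control unless stated, with limma standard errors. A locus is said to pass the threshold when its unadjusted limma p was under 0.01 and its fold change above 2. Sorted values are listed for mutants 61, 74, 103, 167 and 191 and for controls 45, 48, 144b, 144a and 176, in that order. In such bulk samples fewer cells of a type and less RNA per cell cannot be told apart.

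In sorted PCs, 27 of the 32 loci had enough signal to be tested, and 9 passed the threshold, 6 lower and 3 higher in mutants. Among all 16455 loci tested, 1.47% passed, 1.08% lower and 0.395% higher. These 9 are the same loci that the study's list on these libraries contributed. The median difference of the 27 was -0.34, against 0.03 for all loci. It was -0.19 without mutant 61, -0.47 without control 176, -0.11 with submission as a term and -0.08 within MS3005. The filter on low values is a mean log2(value + 1) of 5 over the compared libraries, and 3 of the 27 (Slc9a3, Slc4a1 and Slc12a8) met it through their higher group only. No locus, member or other, reached an adjusted p of 0.05 (the smallest limma value after Benjamini-Hochberg adjustment was 0.394), while 12 members had an unadjusted p under 0.05, a criterion that 11.3% of all loci met. The values of the 9 loci in every library are shown in the plot of sorted levels.

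**Figure D1:**
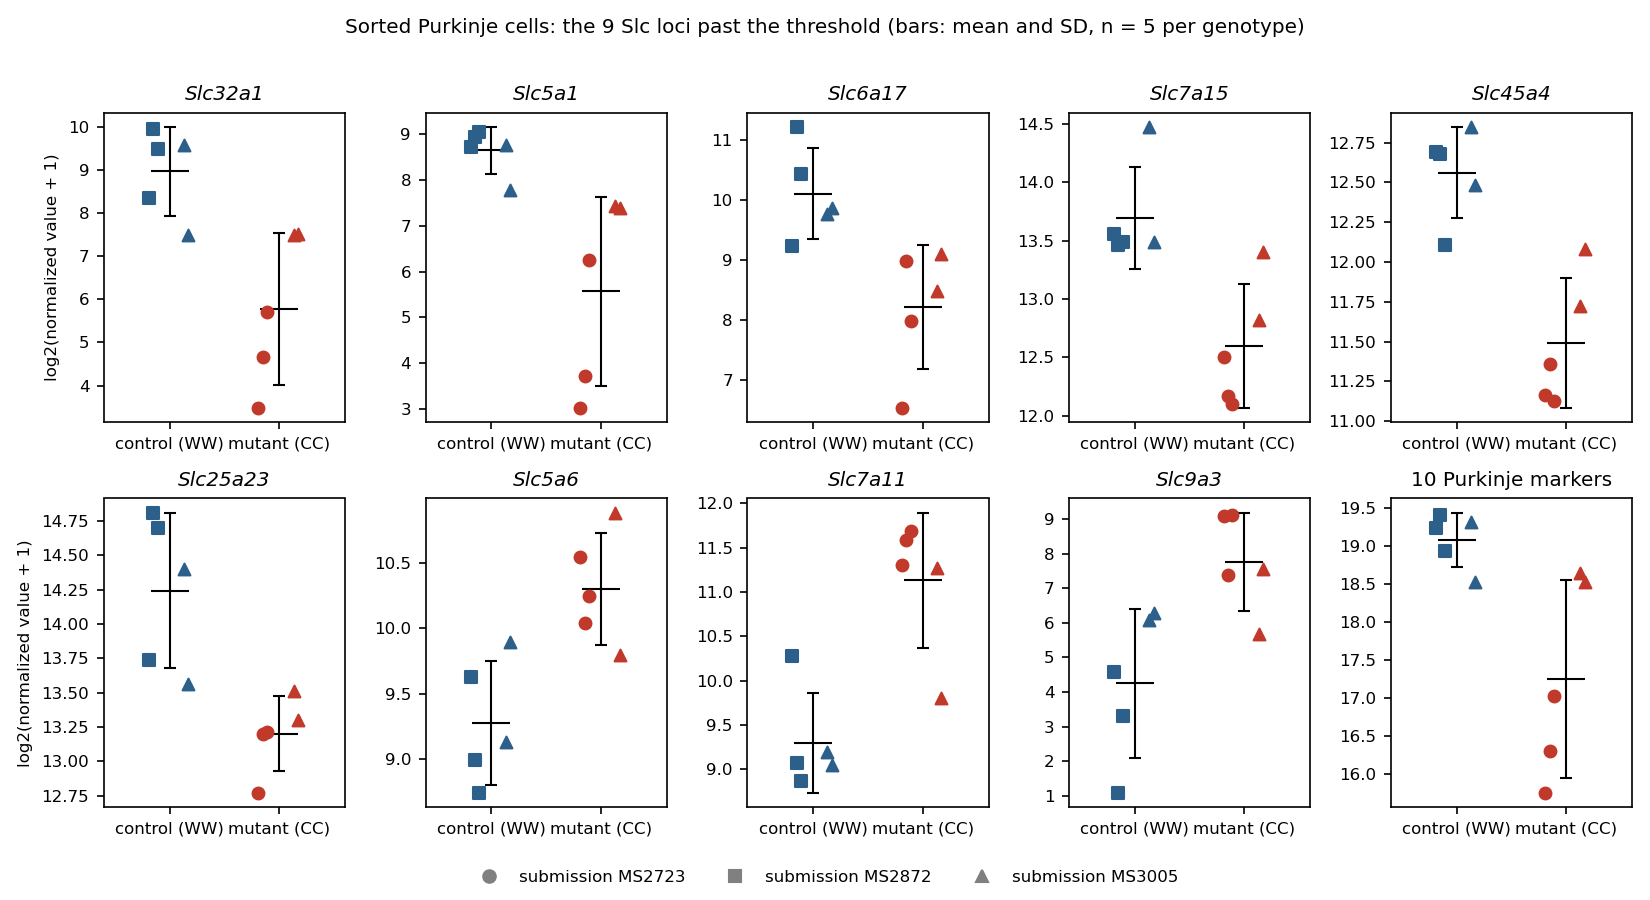
Levels of the 9 Slc loci past the threshold in sorted PCs, as log2(normalized value + 1) in each library, with the mean and SD of 5 libraries per genotype, and the summed level of 10 PC markers in the last panel. Symbols mark the submission number. For Slc32a1, Slc5a1, Slc6a17, Slc7a15, Slc45a4 and Slc25a23 the mutant mean is lower, and for Slc5a6, Slc7a11 and Slc9a3 it is higher, and the 3 mutants of MS2723 have the lowest marker sums (54940 to 133500).

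Transmitter and amino acid carriers showed the largest decrease, that of Slc32a1, which loads GABA into vesicles (ENSMUSG00000037771.11, GRCm38 chr2:158610767-158615748, plus strand). Its level was 24.4, 50.9, 10.2, 180.2 and 183 in the mutants and 991, 715, 324, 765 and 178 in the controls. The 4 other controls lay above every mutant, but control 176 was at the level of mutants 167 and 191. Slc32a1 differed by -3.19 ± 0.83 (SE, limma adjusted p = 0.394). Gad1 and Gad2, which synthesize GABA, differed by -2.54 and -2.52, and their summed level was 166 to 1405 in the mutants of MS2723, 2067 and 3879 in the other mutants and 4589 to 9154 in controls. Of both, Gad1 passed the threshold, as did 1.47% of all loci tested. Gad1 is on the study's list for these libraries and Gad2 on its list on translational efficiency, so that the call is not independent evidence. The 3 mutants with the lowest Slc32a1 were also those with the lowest PC marker sums, and the part of that sum in the result was not tested.

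Slc6a17, a neutral amino acid transporter of synaptic vesicles (chr3:107467543-107518018, minus strand), was at 502, 253, 91.7, 354 and 548 in mutants and at 2367, 1383, 598, 871 and 926 in controls. Every mutant lay below every control, and the difference was -1.89 ± 0.53. The overlapping locus named Slc7a15, after a member of an amino acid transporter family (chr12:8528483-8599066, minus strand), also had separate groups, at 4620, 4383, 5810, 7252 and 10806 in mutants and 11290, 11483, 12057, 22759 and 11478 in controls. Its difference was -1.09 ± 0.30.

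Slc7a11, the cystine and glutamate antiporter that supplies cysteine for glutathione (chr3:49892526-50443614, minus strand), went the other way. Its level was 3088, 3302, 2525, 2474 and 889.9 in mutants and 538, 465, 1243, 584 and 527 in controls. Apart from mutant 191, which lay below control 144b, the mutants were above all controls. The difference was 1.84 ± 0.40 (limma adjusted p = 0.394). The 3 highest values were those of the mutants of MS2723, in which the PC marker sum was lowest and the astroglial sum 268400 to 342700. Of the 3 astroglial markers, Tnc was higher in sorted mutants past the threshold (1.35), while Gfap (-0.30) and Apoe (0.24) did not pass. Tnc is on the study's list for these libraries. The part of other cells in the rise of Slc7a11 was not tested. The remaining tested carriers of the class did not pass. The creatine transporter Slc6a8 was at 859.6 to 1914 in mutants and 1287 to 2274 in controls (-0.60 ± 0.26, limma adjusted p = 0.436), and the GABA and taurine transporter Slc6a13 at 183 to 1665 and 332 to 1432 (-0.56 ± 0.60).

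The promoter of Slc7a11 is shown because this gene was the 1 member with an increase past the threshold whichever sorted library was left out, and because it was the only member whose promoter held the sequence TGATGNAA, a core of the element through which the amino acid stress factor ATF4 binds. RefSeq promoters (GRCm38.p6, 250 bases before to 50 after the start) were found for 24 of the 32 members, 34 promoters in all, and searched on both strands for 9 short sequences. TGATGNAA was in 3.97% of all 32851 promoters. The Slc7a11 promoter (chr3:50443564-50443863, minus strand, printed 5′ to 3′) held it at bases 185 to 192 and, on the other strand, at bases 204 to 211, in capitals.
Slc7a11: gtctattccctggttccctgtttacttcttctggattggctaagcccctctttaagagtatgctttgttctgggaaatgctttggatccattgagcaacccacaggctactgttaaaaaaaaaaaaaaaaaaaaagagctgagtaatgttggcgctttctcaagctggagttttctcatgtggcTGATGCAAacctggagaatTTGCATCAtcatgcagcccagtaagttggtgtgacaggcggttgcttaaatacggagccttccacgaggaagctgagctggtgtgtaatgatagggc
The other sequences searched were TGACNNNGC (in 12.4% of all promoters and in those of 4 members), CACGTG (7.15%, 3 members), TCACGTGA (0.974%, none), TGACGTCA (1.79%, none), TGCGCA (7.76%, 3 members), GGGCGG (35.7%, 19 members), CCAAT (37.4%, 10 members) and TATAAA (13.6%, 3 members). TCACGTGA contains CACGTG, and TGACNNNGC and TGACGTCA share their first letters. Slc32a1 was not among the members with a match to any of the 9. A match describes these letters and is not evidence of binding.

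Among sugar and vitamin carriers, Slc5a1, the sodium-coupled glucose transporter (chr5:33104219-33162870, plus strand), was at 12.2, 75.6, 7.13, 172 and 166 in mutants and 488, 530.0, 419, 437 and 218 in controls. All mutants lay below all controls, and the 3 mutants of MS2723 were lowest. It differed by -3.08 ± 0.86. Its promoter is shown beside the values because Slc5a1 had the second largest decrease and was 1 of 3 members with CACGTG, an E-box, the others being Slc31a2 and Slc9a3. The sequence (chr5:33103969-33104268, plus strand) has the E-box in capitals at bases 108 to 113.
Slc5a1: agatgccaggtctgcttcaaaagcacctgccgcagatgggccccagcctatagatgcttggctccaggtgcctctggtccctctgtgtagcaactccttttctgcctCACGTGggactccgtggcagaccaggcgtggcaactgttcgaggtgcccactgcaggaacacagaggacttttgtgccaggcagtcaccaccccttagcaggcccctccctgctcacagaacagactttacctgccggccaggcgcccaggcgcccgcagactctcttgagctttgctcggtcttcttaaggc

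Slc45a4, of the proton-coupled sugar transporter family (chr15:73577424-73645762, minus strand), was at 2621, 2231, 2295, 3383 and 4337 in mutants and 6543, 4404, 6599, 7368 and 5728 in controls. The groups were separate, although mutant 191 and control 48 almost met, and the difference was -1.07 ± 0.23, with the smallest unadjusted p of the members. Slc5a6, which imports biotin and pantothenate (chr5:31036036-31048924, minus strand), was higher in mutants, at 1052, 1214, 1492, 1890 and 887 against 509, 426, 791, 559 and 953 in controls. Here mutant 191 fell below control 176, and the difference was 1.02 ± 0.28. The related sugar transporter Slc45a1 was at 489, 262, 164, 704 and 528 in mutants and 1737, 679, 485, 646 and 501 in controls, which overlapped (-0.91 ± 0.47, limma adjusted p = 0.468). The glucose transporter family member Slc2a10 (0.79 ± 0.28) and the iodide transporter Slc5a5 (-0.58 ± 0.41) did not pass either.

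Of the 4 inorganic ion carriers, Slc9a3 passed, but it was tested only because it was high in mutants, at a mean log2 level of 7.76 against 4.26 in controls, which is under the filter of 5. The overlapping locus named Slc9a3, after a sodium and proton exchanger (chr13:74121457-74169442, plus strand), was at 165, 551, 544, 50.6 and 187 in mutants and 1.1, 8.89, 22.7, 66.5 and 76.4 in controls. Mutant 167 lay below controls 144a and 176, and the 3 lowest controls were those of MS2872. The difference, given as a description, was 3.50 ± 1.04, and within MS3005 it was 0.45. Slc4a1, the anion exchanger of red blood cells, was listed at 0 in mutant 103 and was at 35.4, 100.3, 66.9 and 73.8 in mutants 61, 74, 167 and 191, all below the controls at 124 to 359 (-3.03 ± 1.14, limma adjusted p = 0.405). The bicarbonate exchanger Slc4a3 was at 3905, 4202, 3033, 2809 and 2696 in mutants and 6383, 5593, 2780, 4309 and 2822 in controls (-0.34 ± 0.27), and Slc12a8 differed by -2.26 ± 1.09 without passing.

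Of the 4 mitochondrial carriers, 1 passed. Slc25a23, a calcium-regulated carrier of ATP-magnesium and phosphate (chr17:57043711-57059863, minus strand), was at 9423, 9505, 6974, 11701 and 10113 in mutants and 28725, 26518, 13678, 21601 and 12089 in controls. The highest mutant lay just below the lowest control, and the difference was -1.04 ± 0.28. Slc25a39, which imports glutathione, differed by -0.25 ± 0.17, Slc25a44, which imports branched-chain amino acids, by -0.07 ± 0.20 and Slc25a16 by 0.00 ± 0.16.

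None of the zinc, copper, nucleotide sugar, lipid, urea and organic anion carriers passed. The copper transporter family member Slc31a2 was at 1248, 1248, 1382, 1733 and 1519 in mutants and 1197, 683, 1940, 1562 and 1795 in controls (0.07 ± 0.28). The zinc transporters Slc39a9 and Slc30a7 differed by 0.41 and 0.51, the CMP-sialic acid transporter Slc35a1 by 0.14, Slc35f2 by -0.62, the organic anion transporter Slco4a1 by 0.25 and Slc22a23 by 0.62. Below the filter were the synaptic vesicle zinc transporter Slc30a3, the urea transporter Slc14a2 and the fatty acid carriers Slc27a2 and Slc27a5. Slc27a2 was listed at 0 in all 5 controls and in mutant 61 and was at 10.5 to 24.4 in the other mutants.

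Groups of 6 members were separate in sorted PCs, all 6 with mutants lower (Slc5a1, Slc4a1, Slc6a17, Slc7a15, Slc45a4 and Slc25a23), where 2.16% of all loci were separate and 1.39% with mutants lower. Slc4a1 met the filter only through controls, at a mean log2 level of 7.87 against 4.83 in mutants. The others are on the study's list for these libraries, so that the count and its direction are not independent evidence. Within submission MS3005, where both genotypes had PC marker sums between 378800 and 652200, the 9 differences kept their sign and were smaller. They were -1.02 for Slc32a1, -0.86 for Slc5a1, -1.03 for Slc6a17, -0.87 for Slc7a15, -0.76 for Slc45a4, -0.57 for Slc25a23, 0.83 for Slc5a6, 1.42 for Slc7a11 and 0.45 for Slc9a3. The libraries of MS3005 are among those on which the 9 loci were chosen, so that the kept sign is not independent evidence. With submission as a term in the fit none of the 9 passed, and 33 loci did among all. Slc32a1 and Slc7a11 passed whichever single library was left out. For the others, the loci lost without mutant 103 were Slc45a4, Slc25a23, Slc5a6, Slc7a15 and Slc9a3, those lost without mutant 74 were Slc6a17, Slc45a4, Slc7a15 and Slc9a3, and those lost without mutant 61 were Slc5a1, Slc7a15 and Slc9a3. Slc5a6 was lost without mutant 167 and Slc9a3 without mutant 191. Without control 45 or control 48 the loci lost were Slc5a1, Slc6a17, Slc25a23, Slc5a6 and Slc9a3, without control 144a they were Slc5a1, Slc45a4, Slc7a15 and Slc5a6, and without control 144b they were Slc5a1 and Slc9a3. Without control 176 no locus was lost. Slc4a1 passed without mutant 103. Over these fits Slc32a1 ranged from -3.63 to -2.62, Slc5a1 from -3.55 to -2.45, Slc6a17 from -2.11 to -1.47, Slc7a11 from 1.70 to 2.17 and Slc9a3 from 2.71 to 4.02.

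Ribosome-bound RNA was compared next. In TRAP without rapamycin 17 of the 32 loci were tested, at a filter of 2 on the mean log2 level, and 1 passed the threshold, Slc31a2, which was lower in mutants. Among all 9658 loci 1.96% passed. The filter was met through the higher group only by 3 of the 17 (Slc31a2, Slc35a1 and Slc5a6), so that the count of 1 is a description. The median difference of the members was -0.27 against 0.07 for all loci, but 0.13 with libraries scaled to equal totals and 0.18 without the filter, and 9 members had an unadjusted p under 0.05, a criterion met by 8.11% of all. The groups of 10 members were separate, 5 higher and 5 lower in mutants, where 15.4% of all loci were separate. All of these but Slc6a17 are on a list that the study drew on these libraries, so that the count is not independent evidence. The differences in both assays are shown side by side in the plot of genotype differences.

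**Figure D2:**
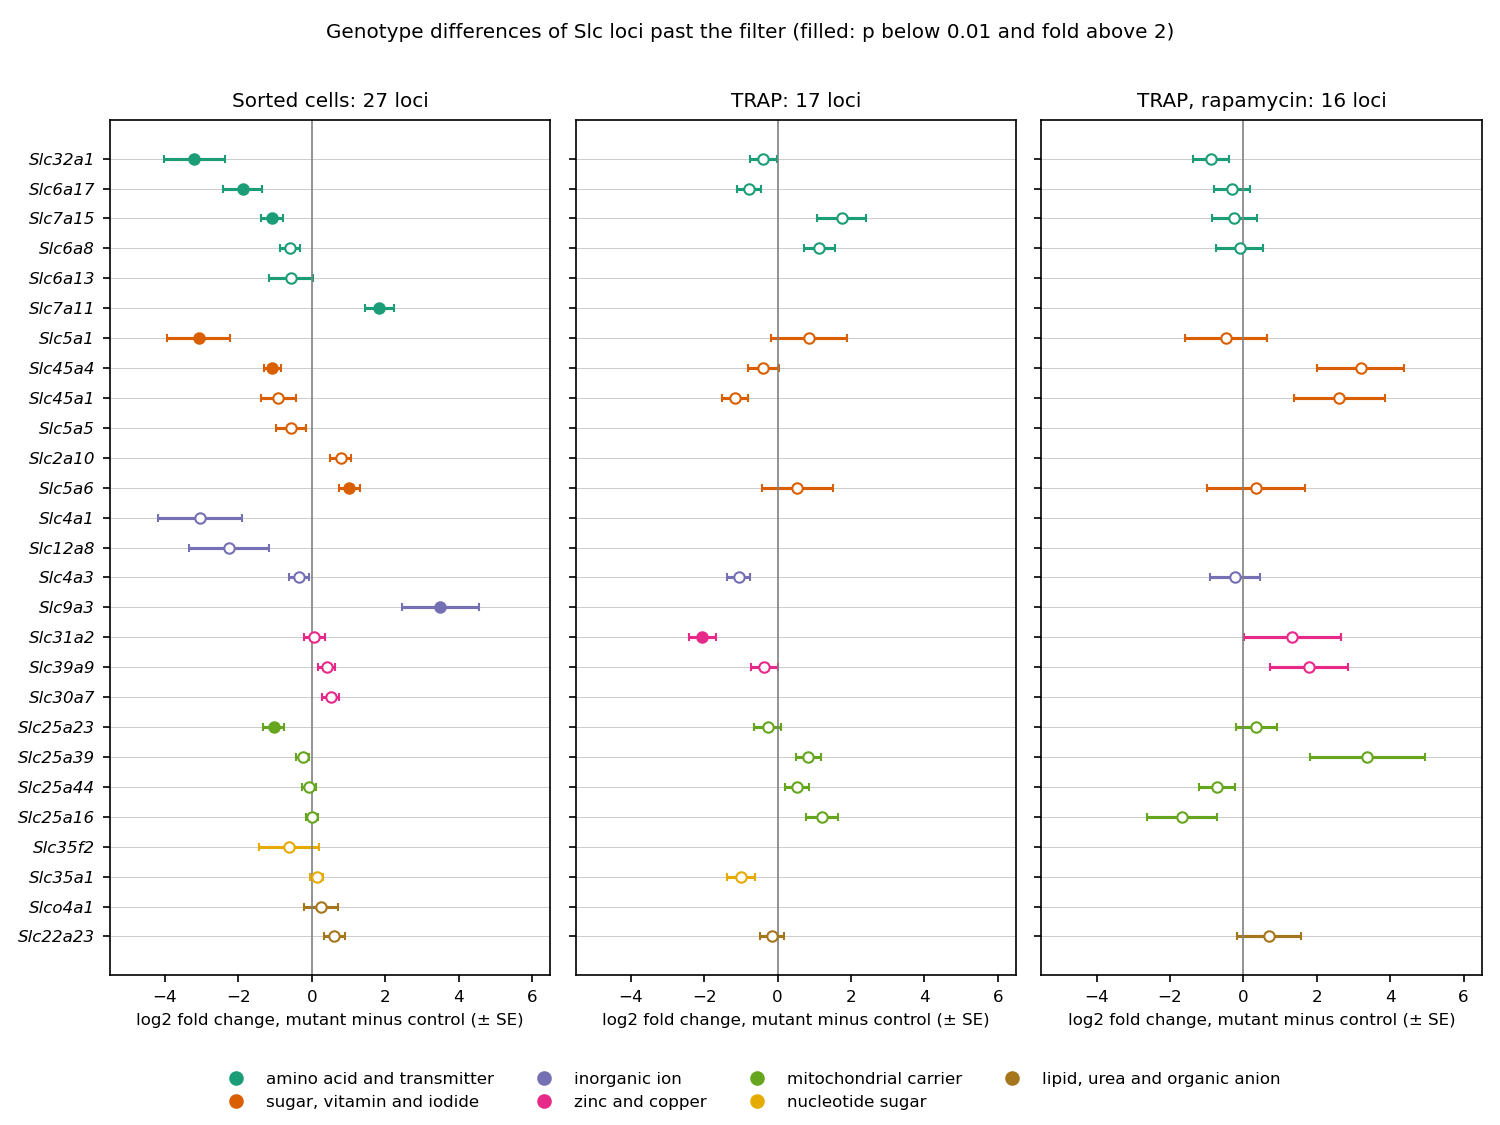
Genotype differences (log2 fold change, mutant minus control, ± SE) of the Slc loci past the filter in sorted PCs (27 loci), TRAP (17) and TRAP with rapamycin (16), coloured by transporter class. Filled points passed the threshold, 9 in sorted PCs, 1 in TRAP (Slc31a2) and none with rapamycin.

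Slc31a2 (chr4:62262562-62298411, plus strand) belongs to the copper transporter family and resides mainly on intracellular membranes. In controls its level was 11.9, 6.9 and 8.91 in replicates 1 to 3, which corresponded to 14, 11 and 16 fragments, and in mutants 1.96, 1.51 and 0.91, or 1, 1 and 3 fragments. Every mutant was below every control. The difference was -2.05 ± 0.37 (limma adjusted p = 0.188). The mean log2 level was 3.33 in controls and 1.28 in mutants, under the filter of 2, so that Slc31a2 was tested only because it was high in controls. Slc31a2 passed without each of the 6 libraries in turn, from -2.22 to -1.87, and in 5 of 10 other alternatives. It did not pass when all 4 TRAP groups shared 1 fit or with an intensity trend (-2.05 in both), with libraries scaled to equal totals (-1.80), with limma-voom (-2.53) or with a pseudocount of 10 (-0.74). Its promoter is printed because Slc31a2 was the only member past the threshold in TRAP. The window (chr4:62286179-62286478, plus strand) has CACGTG in capitals at bases 251 to 256, the first of which is the start of the RefSeq transcript, which lies inside the gene's span above and downstream of the start given there.
Slc31a2: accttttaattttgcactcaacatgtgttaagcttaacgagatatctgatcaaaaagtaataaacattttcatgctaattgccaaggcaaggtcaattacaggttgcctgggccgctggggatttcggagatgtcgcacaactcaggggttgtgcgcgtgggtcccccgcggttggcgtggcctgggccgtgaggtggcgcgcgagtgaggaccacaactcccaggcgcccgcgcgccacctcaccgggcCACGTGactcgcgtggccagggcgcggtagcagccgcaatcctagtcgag

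Lower in all 3 mutants, without passing, were 4 further carriers. The sugar transporter Slc45a1 was at 34, 25.7 and 20.6 in controls and 11.8, 12 and 10.01 in mutants (-1.15 ± 0.35, limma adjusted p = 0.541). The bicarbonate exchanger Slc4a3 was at 74, 55.8 and 67.9 in controls and 31.4, 30.1 and 31 in mutants (-1.06 ± 0.32, limma adjusted p = 0.541). Both genes came from the study's list on these libraries. Slc35a1, which brings CMP-sialic acid into the Golgi, was at 6.81, 5.02 and 8.35 in controls and 3.92, 3.01 and 1.82 in mutants, from 15 fragments or fewer in each library (-0.99 ± 0.38). For the vesicular transporter Slc6a17 the levels were 108, 89.1 and 83 in controls and 58.9, 54.2 and 47.3 in mutants (-0.79 ± 0.33, limma adjusted p = 0.615).

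Higher in all 3 mutants were 5 carriers, none past the threshold. All 5 are on the study's list on translational efficiency, which used these same libraries, so that their separation is not independent evidence. The locus named Slc7a15 was at 15.2, 32 and 4.58 in controls and 37.3, 67.8 and 42.2 in mutants (1.75 ± 0.66, limma adjusted p = 0.593), the opposite sign to sorted PCs. The creatine transporter Slc6a8 was at 40.0, 54.6 and 103 in controls and 143, 133 and 129.6 in mutants (1.14 ± 0.43, limma adjusted p = 0.589). Of the mitochondrial carriers, Slc25a16 was at 2.55, 3.76 and 5.01 in controls and 5.89, 15.1 and 10.3 in mutants (1.21 ± 0.44), Slc25a39 at 33.2, 25.1 and 26.2 and 53, 55.7 and 44.6 (0.84 ± 0.33), and Slc25a44 at 29.8, 24.5 and 22.3 and 39.2, 31.6 and 40.1 (0.52 ± 0.33). In the same mutant libraries the astroglial marker sum was higher (358.4 to 488.5 against 60.68 to 161.7 in controls). Gfap and Apoe were higher and Tnc lower in mutants, all 3 past the threshold, as were 1.96% of all loci. Gfap and Apoe are on the study's TRAP list. Tnc met the filter of 2 only through controls, at a mean log2 level of 3.34 against 1.07 in mutants. These marker calls are therefore a description. The part of other cells in the differences of the 5 carriers was not tested. The microglial sum over 5 markers was 25.1 to 45.12 in these mutants and at most 6.902 in controls.

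None of the 9 loci past the threshold in sorted PCs passed it in TRAP. Slc32a1 was at 36.7, 58.8 and 44.5 in TRAP controls and 30.1, 45.6 and 30.4 in mutants, with overlap (-0.39 ± 0.37, limma adjusted p = 0.787). Slc5a1 was at 17.9 and 6.27 and listed at 0 in controls, against 13.7, 4.52 and 9.1 in mutants (0.86 ± 1.03). Slc45a4 was at 57, 28.9 and 34 and at 39.2, 22.6 and 27.6 (-0.39 ± 0.41), Slc25a23 at 169, 135 and 201 and at 139, 175 and 107 (-0.27 ± 0.36), and Slc5a6 at 10.2 and 3.14 and listed at 0 against 11.8, 1.51 and 3.44 (0.54 ± 0.97). The zinc transporter Slc39a9 differed by -0.36 and Slc22a23 by -0.16. The large rise of Slc7a11 could not be followed, because this gene was below the TRAP filter, at 5.96 and 5.65 and listed at 0 in controls and at 3.92, 1.51 and 3.34 in mutants, from 11 fragments or fewer in each library. Slc9a3 had at most 1.07 fragments in any TRAP library.

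The change in translational efficiency (ΔTE), the TRAP difference minus the sorted difference, was tested as the interaction of genotype and assay for the 17 loci past both filters. None reached an adjusted p of 0.05, against 0.437% of all 9374 loci, and the smallest was that of Slc31a2 (-2.12 ± 0.44, limma adjusted p = 0.050037). An unadjusted p under 0.05 was found for 8 members, where 14.5% of all loci had one, 6 of them higher and 2 lower. ΔTE was above 0 for 10 members (60.4% of all loci), with a median of 0.68 against 0.19. The 6 higher were Slc5a1 (3.94 ± 1.43), Slc7a15 (2.85 ± 0.67), Slc32a1 (2.80 ± 1.12), Slc6a8 (1.73 ± 0.46), Slc25a16 (1.20 ± 0.38) and Slc25a39 (1.09 ± 0.30), and beside Slc31a2 the lower was Slc35a1 (-1.13 ± 0.34). Since the sorted part of ΔTE includes the libraries of MS2723 with low PC marker sums, and 20 of the 32 loci came only from the study's list on this measure, these values are a description. The methods give a library kit for sorted cells only and speak of preparation that differed between total and TRAP RNA, which cannot be told apart from the assay. The points above the diagonal in the plot of sorted against TRAP differences are those with a positive ΔTE.

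**Figure D3:**
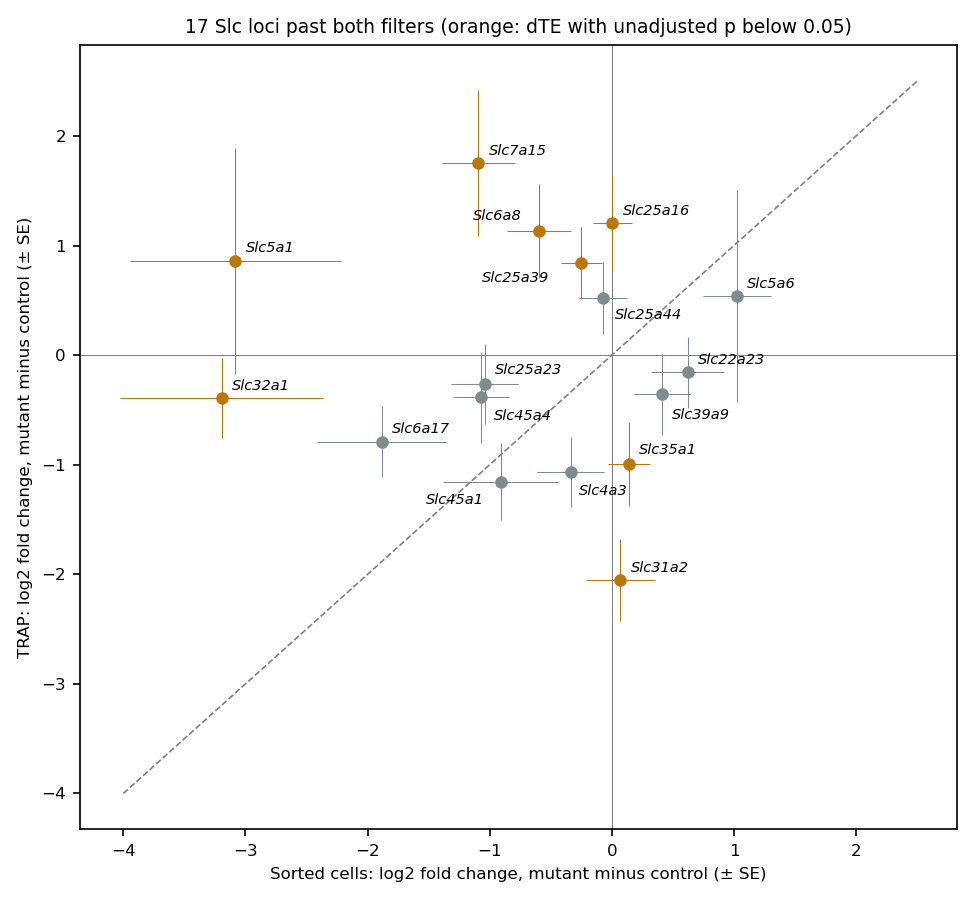
Genotype difference in TRAP against that in sorted PCs for the 17 loci past both filters (log2 fold change, mutant minus control, ± SE on each axis). The dashed line marks equal differences, and orange points have a ΔTE with an unadjusted p under 0.05, 6 above the line and 2 below it (Slc31a2 and Slc35a1).

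Under rapamycin the genotypes were compared in libraries that no list had used, and none of 16 tested members passed the threshold, where 1.23% of all 8728 loci did. Only 1 member had an unadjusted p under 0.05, against 5.5% of all loci, and the groups of 2 were separate (11.8% of all). The median difference was 0.13 against 0.32 for all loci, and its sign was not stable, at -0.07 to 0.18 with a library left out and -0.29 to 0.35 under the other alternatives. Through the higher group only, 5 of the 16 met the filter, Slc45a4 among them. Slc32a1 was at 67.7, 70.7 and 72.6 in controls and 29.8, 39.4 and 45.5 in mutants with rapamycin, so that all mutants were lower (-0.88 ± 0.50, limma adjusted p = 0.873), and Slc25a44 was at 46.9, 47.7 and 38.1 against 25.3, 24.3 and 29.5 (-0.72 ± 0.49). The member with the low p was Slc45a4 (3.19 ± 1.19, limma adjusted p = 0.864), which was listed at 0 in controls 1 and 2 and was at 16 in control 3, against 14.5, 28.3 and 27.7 in mutants.

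The rapamycin controls varied strongly among themselves. In replicates 1 and 2 Slc25a39 was listed at 0 and in replicate 3 it was at 51.1, from 83 fragments. Slc31a2 was at 24.9 in replicate 1, from 26 fragments, and listed at 0 in the others, and Slc45a1 was at 0, 0.884 and 25.2. Slc25a39, Slc31a2 and Slc45a1 were above 0 in every control without rapamycin, and whether such a 0 is a failed estimate was not tested. The share of all loci above 0 was 12.7% to 16.7% in controls with rapamycin and 18.8% to 23.4% in controls without. Without rapamycin control 3, 3 members passed the genotype threshold (Slc25a39, Slc45a1 and Slc45a4), and they passed in the comparison of rapamycin in controls as well. Over the fits with 1 library left out, 36 to 430 of all loci passed the genotype threshold, against 107 with all libraries. For rapamycin in controls 29 to 434 passed, against 91 with all libraries. With all libraries the 3 members met the filter only through their higher group in both comparisons, so that these calls are a description. The levels by group are drawn in the plot of TRAP levels.

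**Figure D4:**
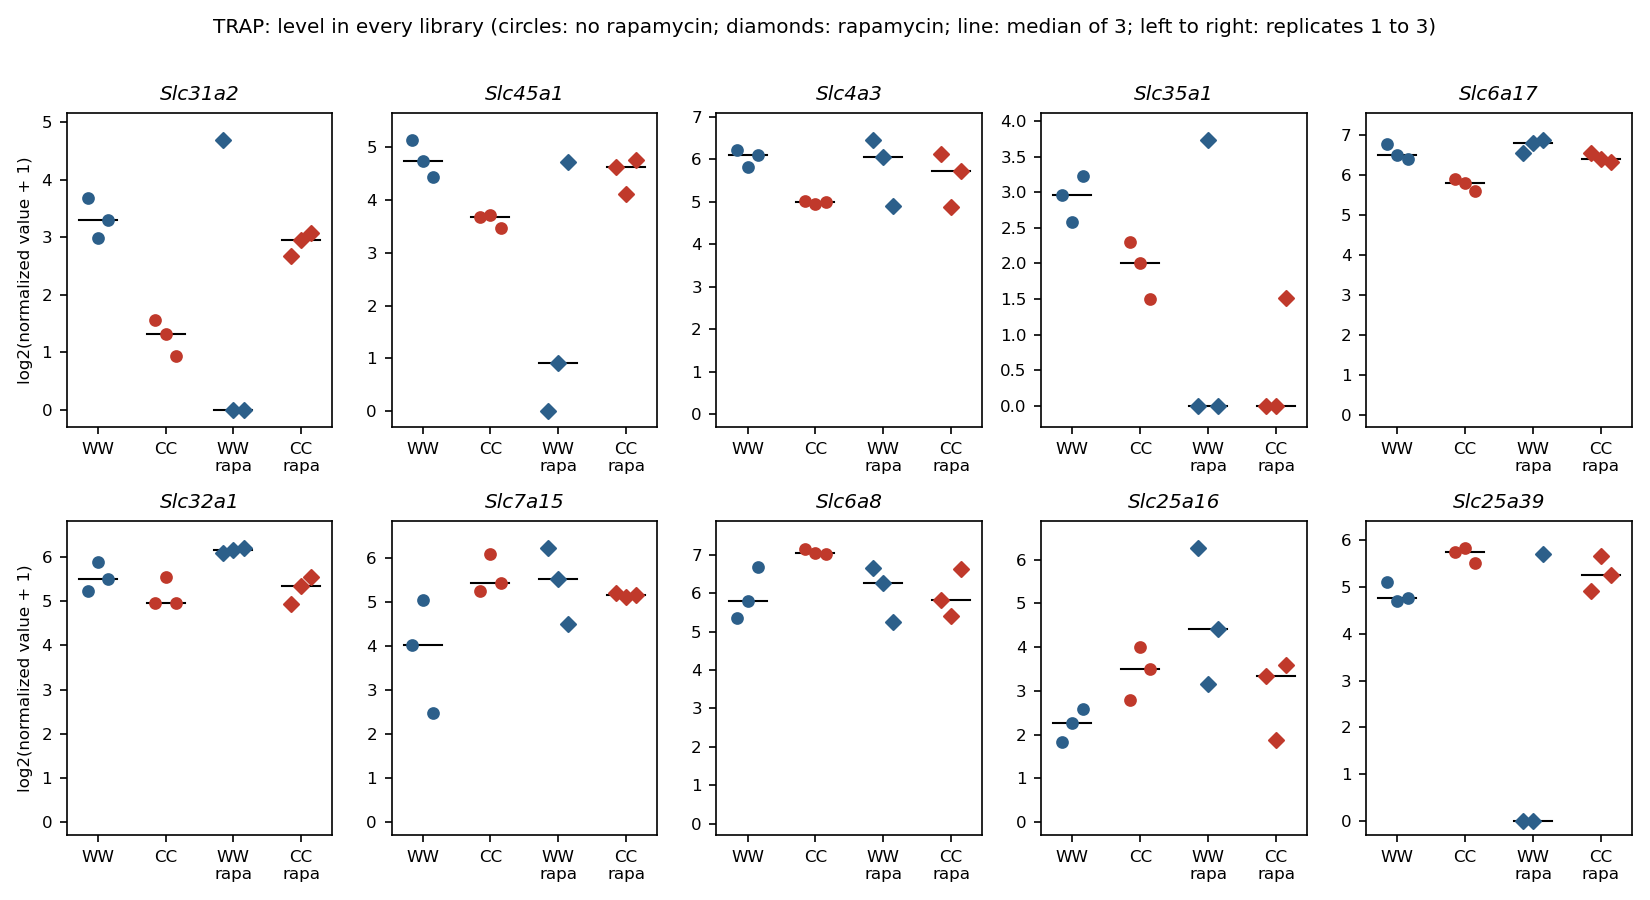
TRAP levels of 10 Slc loci as log2(normalized value + 1) in each of 3 libraries per group, with the median as a line. Slc31a2 is lower in mutants than in controls without rapamycin (0.91 to 1.96 against 6.9 to 11.9) and at 5.43 to 7.38 in mutants with rapamycin, while several loci are listed at 0 in some controls with rapamycin.

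In controls, rapamycin changed none of 16 tested members past the threshold (1.05% of all 8682 loci passed), and 2 had an unadjusted p under 0.05 (5.3% of all). These were Slc45a4 (-3.93 ± 1.19, rapamycin minus none), which met the filter only through the libraries without rapamycin, and Slc25a16, which was at 75.6, 7.96 and 20.3 with rapamycin (2.39 ± 0.87, limma adjusted p = 0.850). The groups of 5 members were separate, against 11.8% of all loci, 3 higher and 2 lower with rapamycin. Higher were Slc25a16, Slc32a1 (0.61 ± 0.53) and Slc25a44 (0.77 ± 0.52), and lower were Slc45a4 and Slc25a23 (-0.54 ± 0.55).

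In mutants, 18 members were tested for rapamycin and 1 passed the threshold, Slc31a2, where 1.75% of all 9664 loci passed. It met the filter of 2 only through the libraries with rapamycin, at a mean log2 level of 2.90 against 1.28 without, so that the call is a description. Its level was 5.43, 6.74 and 7.38 with rapamycin, from 3, 5 and 4 fragments, each above the 3 mutants without rapamycin (1.63 ± 0.33, limma adjusted p = 0.441). This comparison shares the 3 mutant libraries with the genotype comparison in which Slc31a2 was lower. Slc31a2 passed without any single mutant library without rapamycin (1.46 to 1.77). Without mutant 1, 2 or 3 with rapamycin its mean fell under the filter and it was not tested. It passed in 4 of 10 other alternatives, and did not with the replicate number as a block, an intensity trend or all 4 TRAP groups in 1 fit (1.63 in each), equal totals (1.04), limma-voom (2.29) or a pseudocount of 10 (0.53).

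An unadjusted p under 0.05 was found for 3 members in mutants (8.31% of all loci), and the groups of 6 were separate (16.8%). Slc6a8 was at 56.1, 41.8 and 97.8, below every mutant without rapamycin (-1.13 ± 0.40, limma adjusted p = 0.598, not past the threshold), while Slc45a1 was at 23.5, 16.2 and 25.8, above every one (0.87 ± 0.33, limma adjusted p = 0.598), and Slc6a17 at 92.3, 83.6 and 79.4 (0.66 ± 0.30). The locus named Slc7a15 was at 36.2, 33.7 and 35.1 (-0.43 ± 0.35), Slc4a3 at 68.7, 28.3 and 51.7 (0.58 ± 0.40) and Slc32a1 at 29.8, 39.4 and 45.5 (0.12 ± 0.35). The mutant libraries without rapamycin also served the study's lists. Slc45a1 and Slc4a3 are on its TRAP list, and Slc6a8, Slc7a15, Slc4a3 and Slc32a1 are on its list on translational efficiency. Their differences with rapamycin are therefore not independent of that selection and are a description. The astroglial sum moved in the same comparison, from 358.4 to 488.5 without to 54.31 to 155.1 with rapamycin, and its part in these differences was not tested.

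Whether rapamycin acted differently in both genotypes was tested as an interaction over the 12 TRAP libraries. None of 16 tested members passed (1.91% of all 9174 loci did), and 5 had an unadjusted p under 0.05, against 6.02% of all. These were Slc45a1 (3.77 ± 1.35), Slc45a4 (3.58 ± 1.32), Slc31a2 (3.39 ± 1.44), Slc25a44 (-1.24 ± 0.52) and Slc25a16 (-2.88 ± 1.08), and the first 3 include rapamycin controls listed at 0. The smallest adjusted limma p of a member was 0.663.

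Other membrane transport genes, a list of 14 pumps, channels and carriers outside the Slc family, were set beside the members. All 14 were taken from the study's tables of selected genes, so that their counts are not independent evidence. In sorted PCs 12 were tested and 3 passed, all lower in mutants, namely the calcium pumps Atp2a3 (-2.29) and Atp2b2 (-1.37) and the carrier Mfsd12 (-1.08), where 1.47% of all loci passed. All 3 are on the study's list for these libraries. In TRAP 8 were tested and 2 passed, Atp2a3 (-1.46) and Mfsd12 (-1.45), both lower in mutants and both on the study's TRAP list, where 1.96% of all loci passed. With rapamycin none of 8 passed the genotype threshold. In the interaction 8 were tested and 1 passed, Atp2a3 (2.52 ± 0.69, limma adjusted p = 0.345), where 1.91% of all loci passed. Atp2a3 is a calcium pump of endoplasmic reticulum, and the interaction includes the libraries of the TRAP list that names it. For rapamycin in mutants 10 were tested and 1 passed, Abcg2 (-2.80, rapamycin minus none), where 1.75% of all loci passed. Abcg2 met the filter of 2 only through mutants without rapamycin (mean log2 level 3.54 against 0.74 with rapamycin). Both calls are a description.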

How the data were processed

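The reads were paired-end. The labels name the SMART-Seq v4 kit for all libraries, whereas the methods name it for sorted cells only. Per the labels' processing notes, the authors used Trimmomatic 0.39, STAR 2.7.0f, Cufflinks 2.2.1 and the build GRCm38. The authors quantified assembled loci and deposited 1 table for sorted PCs and 1 for TRAP, in which each value is a signal that the authors made by dividing estimated fragments by 1 factor per library. Each table was scaled on its own. The smallest step in each library gave its depth in fragments. Only 76% to 77.9% of sorted and 85.3% to 95.6% of TRAP values were whole multiples of it within 0.01, so that the main tests used log2 values, and estimated fragments served only to show depth and for limma-voom as an alternative. Size and precision therefore differ, TRAP values resting on far fewer fragments.

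Loci whose log2(value + 1), averaged over the compared libraries, reached 5 (sorted) or 2 (TRAP) were fitted with limma 3.58.1 in R 4.3.3 (pseudocount 1, two-sided), over all loci, with the Benjamini-Hochberg adjustment, and calls used the study's thresholds on p and fold change. ΔTE was called at an adjusted p under 0.05, not by the study's Z-score. Only the compared groups entered each fit, apart from the interactions. Per the methods, cells and TRAP RNA were collected per animal, but sorted controls 144a and 144b carry 1 animal number, and the study's text and a legend differ on the number of sorted animals. The main fits count 144a and 144b separately. Values in every library are given for members past the threshold and for those of the study's lists on sorted cells and TRAP. For other members whose groups were separate, or with libraries listed at 0, values in every library were added after they were seen. The rest are given by range or difference. Of the 32 loci, 1 is not reported here. Names and coordinates came from the study's tables and GENCODE. The members, lists, tests and alternatives were chosen with earlier results of these data known. The scripts were tested on simulated data. Tried as alternatives were quantile normalization, equal totals, pseudocounts of 0.1 and 10, omitting the filter, an intensity trend, limma-voom, submission or replicate as a term, 144a and 144b averaged, and each library left out. The authors' own fold changes and p-values in the published tables were not used. Figures were drawn with Matplotlib 3.10.9.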

Additional observations from a re-analysis of the deposited data

Results flagged for a closer look

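Among 63 sets of 5 sorted libraries (a member in 1 genotype), 8 held a library far from the other 4 by Dixon's criterion. For independent, normally distributed values chance gives such a library in about 1 set of 20. The sets share the same libraries and some hold values of 0, so that the 8 cannot be measured against this rate. On the log2 scale Slc7a11 was at 9.80 in mutant 191, against 11.27 to 11.69 in the other mutants, and at 10.28 in control 144b, against 8.86 to 9.19 in the other controls. Slc5a1 was at 7.77 in control 176 and 8.72 to 9.05 in the others. Slc7a15 was at 14.47 in control 144a and 13.46 to 13.56 in the others, although control 144b carries the same animal number. Slc45a1 was at 10.76 in control 45 and 8.92 to 9.41 in the others. Slc4a1 was listed at 0 in mutant 103 and was at 5.19 to 6.66 in the other mutants, and Slc27a2 was listed at 0 in mutant 61 and at 3.53 to 4.67 in the others. Slc27a5 was at 1.51 in control 176 and listed at 0 in the other controls.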

How the results depend on the processing

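No difference of a member past the threshold changed sign under any alternative run. In sorted PCs the count of 9 became 0 with submission as a term and 0 within MS3005, and 4 to 9 with 1 library left out, and the other alternatives gave 7 to 10. For the TRAP genotype comparison the count of 1 became 0 with equal totals, 2 with a pseudocount of 10 (Slc6a8 and Slc7a15), 2 with 0.1 (Slc31a2 and Slc4a3), 6 without the filter, 3 with an intensity trend, 3 with limma-voom (Slc4a3, Slc6a8 and Slc7a15 in both), 0 with all 4 TRAP groups in 1 fit and 1 to 3 with a library left out. Under rapamycin the count of 0 became 1 with all groups in 1 fit (Slc45a4) and 0 to 3 with a library left out. For rapamycin in controls the count of 0 became 1 with a pseudocount of 10, 1 without the filter, 1 with limma-voom, 2 with all groups in 1 fit and 0 to 3 with a library left out. In mutants the count of 1 became 0 with equal totals, 2 without the filter, 0 with all groups in 1 fit and 0 to 1 with a library left out, and the 1 member was Slc6a8 in place of Slc31a2 with a pseudocount of 10, an intensity trend, limma-voom or without mutant 3 with rapamycin. The interaction count of 0 became 1 with a pseudocount of 10, 2 without the filter, 2 with limma-voom and 0 to 4 with a library left out. For ΔTE the count of 0 became 1 with quantile normalization, 1 with a pseudocount of 0.1 (Slc31a2 in both) and 0 to 2 with a library left out. With 1 library left out, the number of all loci called also varied. It was 104 to 530 in sorted PCs, 98 to 354 in TRAP and 36 to 430 under rapamycin. For rapamycin it was 29 to 434 in controls and 72 to 221 in mutants. It was 121 to 529 for the interaction and 11 to 284 for ΔTE. The counts of members under the alternatives are therefore a description and not a result about the carriers. The cause was not tested.

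TRAP replicate numbers do not pair libraries. The 18 correlations between same-numbered libraries were -0.0654 to 0.0736. With the replicate block the count in mutants with rapamycin went from 1 to 0, and the counts of the other TRAP comparisons remained at 1, 0, 0 and 0.

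Equal totals moved the median of all loci by 0.40 in the TRAP genotype comparison, -0.39 under rapamycin, 0.03 for rapamycin in controls, -0.75 in mutants, -0.78 for the interaction and 0.35 for ΔTE, so that TRAP differences of single carriers are relative to the scaling chosen. On that scaling the TRAP median of the members was 0.13 against 0.47 for all loci. TRAP depth limits carriers with few fragments, such as Slc31a2, Slc35a1, Slc5a6 and Slc7a11.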
